A study of Arabidopsis thaliana with 4 samples.

Results

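The genes described here encode the light-harvesting antenna proteins of the thylakoid membrane and the nuclear-encoded subunits of the photosynthetic electron transport chain in Arabidopsis thaliana. They were chosen by gene identifier, and all 54 are among the 32548 genes of the deposited table, 21 for antenna proteins and 33 for subunits of the photosystem cores, the electron carriers and the ATP synthase. RNA had been sequenced from whole seedlings of Col-0, the wild type, and of the bdt1 mutant in the same background, with 2 libraries per genotype that the labels call biological replicates. All seedlings were 10 days old and came from plates of Murashige and Skoog medium at 22 degrees C under 16 h of light and 8 h of darkness. The mutant is labelled bdt1-/-, its allele is not given in the sources used here, and 1 of its labels spells the name btl1. Libraries of whole seedlings mix leaf, stem and root cells, so fewer cells of a type and less RNA per cell cannot be told apart in any value below.

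Photosystem II and photosystem I each hold a core, where charge is separated, and a surrounding antenna of chlorophyll a/b-binding proteins that feeds the core with excitation energy. LHCB1, LHCB2 and LHCB3 build the trimers of light-harvesting complex II (LHCII), LHCB4, LHCB5 and LHCB6 are monomeric linkers between the trimers and the photosystem II core, and LHCA1 to LHCA4 form the belt of photosystem I. The size of the antenna relative to the core is known to be adjusted to light, and transcription of antenna genes is known to depend on the GLK transcription factors, on light signalling and on the circadian clock.

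Of the 20 antenna genes that could be tested, 9 fell in bdt1 at an adjusted p under 0.05, and 5 of these 9 encode proteins of the LHCII trimer. Of the 33 core genes 2 fell, both for photosystem I, and the others did not pass the test. limma called no gene of either class higher, nor did edgeR's quasi-likelihood test on the recovered counts, where it called 1.45% of all tested genes. DESeq2 on the same counts called 1 member higher, LHCB4.3, among 258 genes called higher in the whole table. Over all 23256 tested genes 0.856% were called lower and 1.2% higher by the same limma fit, with Benjamini-Hochberg adjustment over all of them. The median log2 fold change was -0.25 over the tested antenna genes, -0.11 over the core genes and 0.00 over all tested genes. All fold changes are bdt1 minus Col-0 on the scale of log2(normalised read count + 1).

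Libraries held between 22914893 and 27435729 reads assigned to genes, recovered from the deposited values. AT4G11560, the gene that background knowledge and not the files ties to the name BDT1, had normalised read counts of 1135 and 1117 in Col-0 and of 312.8 and 324 in bdt1. It fell by 1.82 on the log2 scale (limma adjusted p = 3.9e-05, SE 0.08), so the labels and this transcript point the same way. Markers of mesophyll, of shoot epidermis and guard cells and of root were all detected, so the libraries hold the tissues of a whole seedling.

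Promoter sequences of 6 members are shown because these genes carry the contrasts described below. LHCB1.3 is the most abundant antenna transcript, LHCB2.1, LHCB2.2 and LHCB2.3 are copies with fitted changes of different sign, LHCB4.2 is the lower of a linker pair, and PSBQ1 stands for the photosystem II core. Each line gives the 250 bases before the annotated gene start, 5′ to 3′ on the strand of the gene, read from the TAIR10.1 genome with the RefSeq annotation, with matches on either strand in capitals to the G-box CACGTG, the I-box core GATAAG, the CCAAT-box form CCAATC, the TATA box TATAAA and the evening element AAAATATCT of clock-regulated promoters.
LHCB1.3: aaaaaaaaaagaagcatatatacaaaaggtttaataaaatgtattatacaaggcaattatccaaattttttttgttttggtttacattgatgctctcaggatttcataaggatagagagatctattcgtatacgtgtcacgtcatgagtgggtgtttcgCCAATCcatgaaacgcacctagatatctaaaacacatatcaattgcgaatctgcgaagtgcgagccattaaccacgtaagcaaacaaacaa
LHCB2.1: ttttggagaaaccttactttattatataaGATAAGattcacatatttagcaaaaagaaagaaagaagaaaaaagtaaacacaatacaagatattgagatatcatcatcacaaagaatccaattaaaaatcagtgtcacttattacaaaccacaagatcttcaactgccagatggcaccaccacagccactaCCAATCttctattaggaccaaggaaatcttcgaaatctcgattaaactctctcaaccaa
LHCB2.2: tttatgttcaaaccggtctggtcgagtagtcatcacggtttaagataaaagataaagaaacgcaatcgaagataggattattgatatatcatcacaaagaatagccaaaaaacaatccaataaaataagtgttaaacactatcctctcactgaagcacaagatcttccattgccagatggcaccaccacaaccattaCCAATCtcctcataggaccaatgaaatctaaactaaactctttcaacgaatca
LHCB2.3: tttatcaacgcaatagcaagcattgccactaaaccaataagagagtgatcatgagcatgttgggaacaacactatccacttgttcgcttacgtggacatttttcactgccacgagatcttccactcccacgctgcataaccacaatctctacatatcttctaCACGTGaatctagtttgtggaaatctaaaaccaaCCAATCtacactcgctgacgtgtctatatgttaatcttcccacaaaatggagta
LHCB4.2: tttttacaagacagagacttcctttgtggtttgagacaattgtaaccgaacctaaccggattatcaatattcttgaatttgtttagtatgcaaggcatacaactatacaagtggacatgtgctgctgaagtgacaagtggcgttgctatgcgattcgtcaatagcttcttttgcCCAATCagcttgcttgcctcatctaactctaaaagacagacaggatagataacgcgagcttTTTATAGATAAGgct
PSBQ1: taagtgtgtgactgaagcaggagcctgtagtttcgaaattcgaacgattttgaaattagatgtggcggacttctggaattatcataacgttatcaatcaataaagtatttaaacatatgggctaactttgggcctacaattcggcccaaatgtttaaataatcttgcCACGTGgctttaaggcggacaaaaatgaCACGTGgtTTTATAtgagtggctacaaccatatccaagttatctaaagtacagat

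The windows lie at chr1:10477635-10477884 for LHCB1.3 on the plus strand, chr2:1824481-1824730 for LHCB2.1 and chr2:1800473-1800722 for LHCB2.2 on the minus strand, and chr3:10255656-10255905 for LHCB2.3, chr3:2717307-2717556 for LHCB4.2 and chr4:11334102-11334351 for PSBQ1 on the plus strand (TAIR10.1). No motif of the 5 contains another. In a window from 250 bases before to 50 bases after the gene start, CCAATC was present in 52.4% of the 21 antenna promoters, in 21.2% of the 33 core promoters and in 12.3% of the promoters of 27443 protein-coding genes of the table. GATAAG was present in 28.6% of antenna, 54.5% of core and 14.6% of all promoters, and CACGTG in 23.8%, 36.4% and 7.68%. TATAAA was found in 42.9% of antenna, 48.5% of core and 52.1% of all promoters, and the evening element in 4.76%, 3.03% and 2.82%. These shares depend on the window. In the 250 bases before the start alone, CCAATC was present in 47.6% of antenna, 12.1% of core and 10.2% of all promoters, GATAAG in 19%, 27.3% and 12.3%, and CACGTG in 23.8%, 18.2% and 6.49%, so that the antenna and core shares of CACGTG changed their order.

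Among the 250 bases before the start, GATAAG was present in 4 of the 9 antenna genes called lower. It was present in 0 of the 11 that were tested and not called. CCAATC was present in 6 of the 9 and in 3 of the 11. For core genes, GATAAG was present in 1 of 2 called and 8 of 31 not called, and CCAATC in 0 of 2 and 4 of 31. With the 50 bases after the start included, GATAAG was present in 3 of the 6 linker genes and their relatives, of which 2 were called. The 0 for antenna genes not called therefore holds only for the window before the start. The 3 LHCB2 copies all carry CCAATC between 53 and 59 bases before the start, and LHCB2.3 alone among them carries CACGTG, 88 bases before it. These matches describe the letters in the window and do not show binding. The motif shares were not tested, and the counts by call rest on few genes.

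LHCB1 proteins make up most of the LHCII trimer. LHCB1.3 (AT1G29930, chromosome 1, 10477885 to 10479114) had normalised read counts of 203000 and 179700 in Col-0 and of 138300 and 140400 in bdt1. Its level per length in Col-0 was 156000 normalised reads per kb, the highest of all members, followed among antenna genes by LHCB4.1 at 39200, LHCB5 at 38100 and LHCA2 at 35600 per kb. Both bdt1 libraries lay below both Col-0 libraries, and LHCB1.3 fell by 0.46 on the log2 scale (limma adjusted p = 0.030, SE 0.08), or 27.1%. The nearby copy LHCB1.2 (AT1G29910) had 11640 and 9538 normalised reads in Col-0 and 7747 and 7668 in bdt1, again without overlap, and fell by 0.45 (limma adjusted p = 0.037, SE 0.09).

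The other LHCB1 copies did not pass the test or could not be tested. LHCB1.1 (AT1G29920) had 4738 and 4693 normalised reads in Col-0 and 4482 and 5378 in bdt1, so the genotypes overlapped (log2 fold change 0.06, SE 0.08, limma adjusted p = 0.77). LHCB1.4 (AT2G34430), on chromosome 2, had 14230 and 10890 normalised reads in Col-0 and 13750 and 13730 in bdt1. The spread between its Col-0 libraries was larger than the difference between genotypes: the log2 fold change was 0.14 (limma adjusted p = 0.55, SE 0.11), 0.34 without Col-0 replicate 1 (limma adjusted p = 0.001) and -0.05 without Col-0 replicate 2 (limma adjusted p = 0.50). LHCB1.5 (AT2G34420) is listed at 0 in all 4 libraries.

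Copies of LHCB1 share much of their sequence, so the split of reads among them is uncertain. The coding sequences of LHCB1.1, LHCB1.2 and LHCB1.3 were between 95.6% and 96.4% identical, yet the longest stretch shared by any pair of their transcripts was 119 bases, below the read length of 150 bases given in the labels. Summed over the 3 copies, the normalised read count was 219421 and 193937 in Col-0 and 150553 and 153419 in bdt1, a fall by 0.44 on the log2 scale (limma adjusted p = 0.035, SE 0.08). LHCB1.5 lies wholly inside AT2G08665, a gene annotated on the opposite strand over all of its 1045 bases, which is listed at 0 too. Of 476 protein-coding genes lying in this way inside a gene of the other strand, 415 (87.2%) are listed at 0 in every library, against 13.4% of the other 26968, so the 0 for LHCB1.5 does not show absence of its transcript.

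LHCB2 proteins are, with LHCB1, the trimer subunits that are phosphorylated in state transitions. LHCB2.1 (AT2G05100, chromosome 2, 1822990 to 1824480) had 4782 and 4443 normalised reads in Col-0 and 2869 and 3242 in bdt1. It fell by 0.60 on the log2 scale (limma adjusted p = 0.0056, SE 0.07), or 33.8%, with no overlap between genotypes. LHCB2.2 (AT2G05070) had 2725 and 2548 in Col-0 and 1841 and 1925 in bdt1, and fell by 0.49 (limma adjusted p = 0.0068, SE 0.06). The transcripts of these nearby genes share a stretch of 152 bases, and their sum fell by 0.55 (limma adjusted p = 0.0047, SE 0.06).

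LHCB2.3 (AT3G27690, chromosome 3, 10255906 to 10257489), the third gene for the same protein type, had 1679 and 1570 normalised reads in Col-0 and 1698 and 1810 in bdt1. Both bdt1 libraries were above both Col-0 libraries, by a log2 fold change of 0.11 (limma adjusted p = 0.44, SE 0.07, 95% interval -0.04 to 0.26). With 1 library left out in limma or edgeR, the value for LHCB2.3 ranged from 0.06 to 0.16. The ratio of LHCB2.3 to LHCB2.1 was 0.351 and 0.353 in Col-0 and 0.592 and 0.558 in bdt1. An exact two-sided permutation test of the ratio over the 4 libraries gave p = 0.333, the smallest that 2 libraries against 2 allow. As a share of all LHCB2 reads, LHCB2.3 was 18.3% in both Col-0 libraries and 26.5% and 25.9% in bdt1. The LHCB2.3 transcript overlaps AT3G27700 on the opposite strand in 33.9% of its windows of 150 bases, and the strandedness of the counting is not given in the sources used here. AT3G27700 itself had 928 and 843.8 normalised reads in Col-0 and 897 and 801.6 in bdt1.

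LHCB3, the minor subunit of the trimer, showed the largest fall of all members. LHCB3 (AT5G54270, chromosome 5, 22038165 to 22039568) had 12390 and 11060 normalised reads in Col-0 and 7155 and 7780 in bdt1. That is a fall by 0.65 on the log2 scale (limma adjusted p = 0.0034, SE 0.07), or 36.3%. Taken as a group, 5 of the 8 tested LHCII genes were called lower, with a median log2 fold change of -0.45, and the 3 others lay between 0.06 and 0.14.

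**Figure D1:**
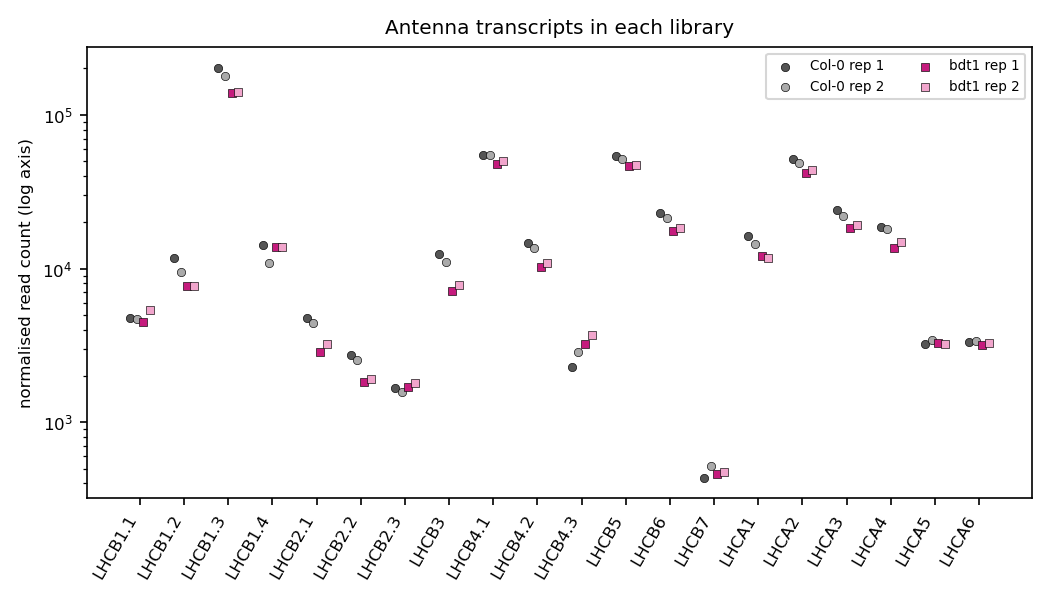
Normalised read count (log axis) of the 20 antenna genes above 0 in each of the 4 libraries, with circles for Col-0 and squares for bdt1. LHCB1.3 stands above all others with 138300 to 203000, and the squares lie below the circles for LHCB3 and LHCB2.1 but above them for LHCB4.3.

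Of the 6 genes for linker antenna proteins and their relatives, 2 were called lower, with a median log2 fold change of -0.17. LHCB4.2 (AT3G08940), 1 of 3 genes for the CP29 protein, had 14650 and 13620 normalised reads in Col-0 and 10200 and 10940 in bdt1. It fell by 0.42 on the log2 scale (limma adjusted p = 0.013, SE 0.06). LHCB6 (AT1G15820), which encodes CP24, had 23140 and 21170 in Col-0 and 17570 and 18290 in bdt1, and fell by 0.30 (limma adjusted p = 0.046, SE 0.06). LHCB4.1, the main CP29 gene, had a log2 fold change of -0.17 (limma adjusted p = 0.21) and LHCB5, which encodes CP26, one of -0.18 (limma adjusted p = 0.18). In both genes the bdt1 libraries lay below the Col-0 libraries without passing the test.

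LHCB4.3 (AT2G40100), the third CP29 gene, also called LHCB8, had higher levels in both bdt1 libraries than in either Col-0 library. It had 2284 and 2863 normalised reads in Col-0 and 3213 and 3673 in bdt1, a log2 fold change of 0.43 (limma adjusted p = 0.09, SE 0.11, 95% interval 0.19 to 0.67). With all libraries, DESeq2 on the recovered counts called LHCB4.3 higher (adjusted p = 0.010) and edgeR did not (adjusted p = 0.068). With 1 library left out in limma or edgeR, the value for LHCB4.3 ranged from 0.26 to 0.59. In limma it was 0.26 without Col-0 replicate 1 and 0.59 without Col-0 replicate 2. Whether the gene was called changed with the library left out and with the test. Within the CP29 family its share was 3.17% and 4.04% in Col-0 and 5.27% and 5.69% in bdt1, while that of LHCB4.2 was 20.3% and 19.2% in Col-0 and 16.7% and 17% in bdt1. LHCB7 (AT1G76570), a rare relative with 479.8 normalised reads on average in Col-0, had a log2 fold change of -0.03 (SE 0.10), and its genotypes overlapped.

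The antenna of photosystem I was lower in 2 of its 6 genes. LHCA1 (AT3G54890) had 16160 and 14510 normalised reads in Col-0 and 12030 and 11730 in bdt1, and fell by 0.37 on the log2 scale (limma adjusted p = 0.028, SE 0.06). LHCA4 (AT3G47470), with which LHCA1 pairs in the belt, had 18640 and 18060 in Col-0 and 13620 and 14880 in bdt1, and fell by 0.37 (limma adjusted p = 0.023, SE 0.06). The other belt pair, LHCA2 and LHCA3, had log2 fold changes of -0.23 and -0.28 that limma did not call (adjusted p = 0.11 and 0.061), while limma-voom and DESeq2 on the recovered counts called both lower.

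LHCA5 and LHCA6, low-abundance proteins known to link photosystem I to the NDH complex of cyclic electron flow, had small fitted differences. LHCA5 had 3219 and 3404 normalised reads in Col-0 and 3262 and 3233 in bdt1 (log2 fold change -0.03, 95% interval -0.15 to 0.10). LHCA6 had 3322 and 3359 in Col-0 and 3188 and 3279 in bdt1 (log2 fold change -0.05, 95% interval -0.17 to 0.07). Both intervals leave out a fall as large as that fitted for LHCA1 and LHCA4, although the difference between these genes was not itself tested.

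**Figure D2:**
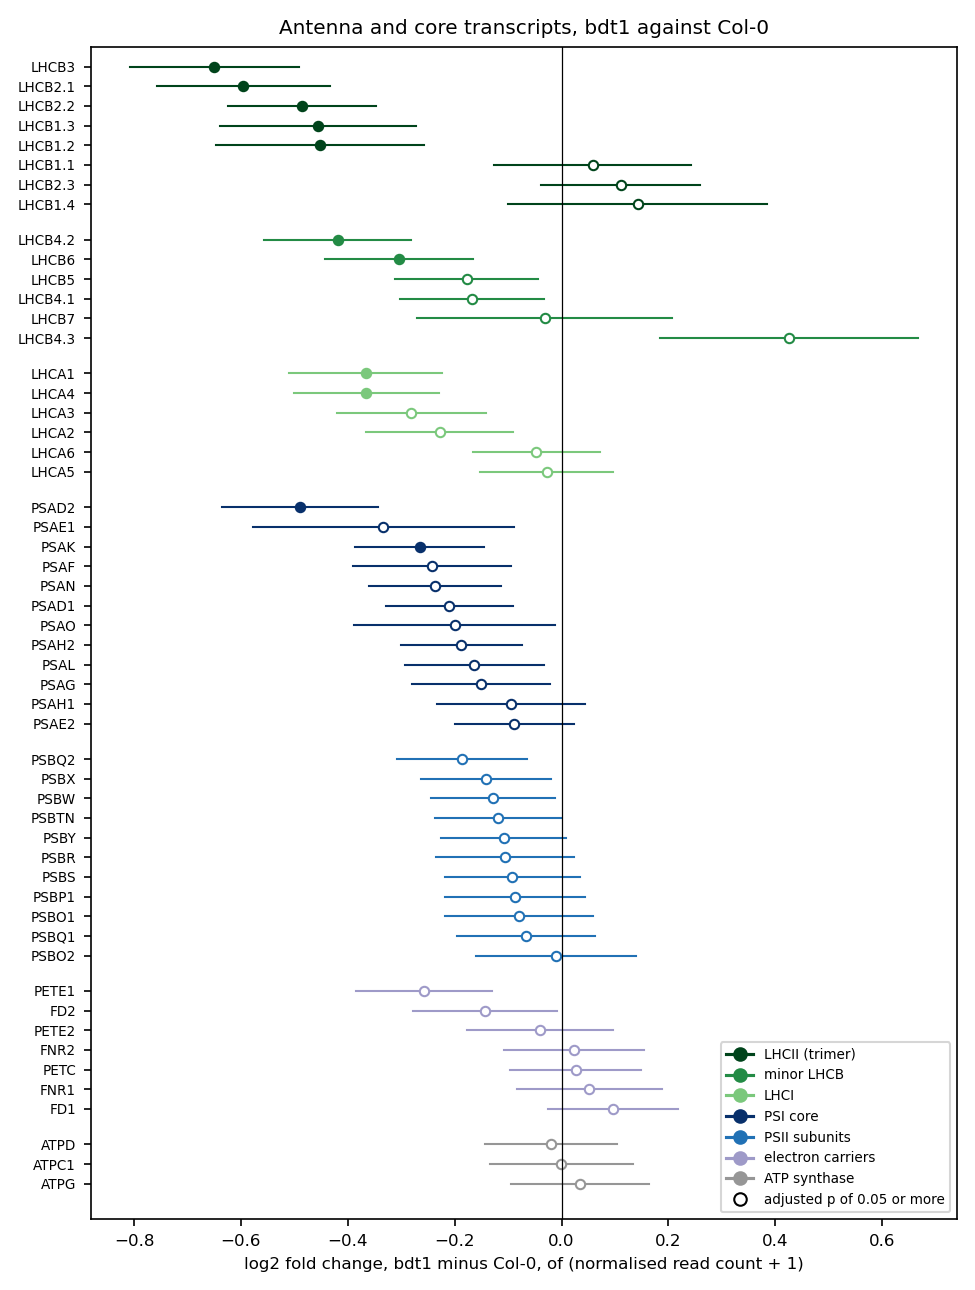
Log2 fold change (bdt1 minus Col-0) of the 53 tested members with its 95% interval from limma, grouped by complex, with filled points for an adjusted p under 0.05. The filled points are 9 antenna genes, 5 of them LHCII, and 2 photosystem I genes, all to the left of 0.

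Photosystem I core subunits lay between the antenna as a whole (-0.25) and photosystem II (-0.11) in their median. The linker genes and their relatives, which are part of the antenna, fell less in their median (-0.17) than photosystem I. All 12 photosystem I genes had a log2 fold change below 0, with a median of -0.21. Below 0 lay 49.3% of all tested genes and 61.5% of those with a mean of at least 1000 normalised reads. PSAD2 (AT1G03130), 1 of 2 genes for the stromal subunit that docks ferredoxin, had 8409 and 7646 normalised reads in Col-0 and 5516 and 5911 in bdt1. It fell by 0.49 (limma adjusted p = 0.0081, SE 0.06), or 28.8%, close to the fall of LHCB2.2. PSAK (AT1G30380), a membrane subunit at the side where the antenna belt attaches, had 23260 and 22420 in Col-0 and 18720 and 19280 in bdt1, and fell by 0.27 (limma adjusted p = 0.046, SE 0.05).

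PSAE1, for another stromal subunit, had 6864 and 6858 normalised reads in Col-0 and 6237 and 4752 in bdt1. Its log2 fold change of -0.33 (limma adjusted p = 0.17, SE 0.11) was -0.53 without bdt1 replicate 1 and -0.14 without bdt1 replicate 2, so the low value of 1 bdt1 library set its size. The remaining 9 photosystem I genes had log2 fold changes from -0.24 for PSAF, which takes part in docking plastocyanin, to -0.09 for PSAE2. As for LHCB2.3, parts of some of these transcripts overlap a gene on the opposite strand. The share of windows of 150 bases was 52.3% for PSAG, 44.7% for PSAH1 and 18.2% for PSAE1. How reads from these parts were counted is not known. DESeq2 called 5 of the 12 lower (PSAD1, PSAD2, PSAF, PSAK and PSAN), against 0.95% of all tested genes, limma-voom 4, against 0.92%, and edgeR 2.

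Photosystem II subunits had small fitted differences. All 11 had log2 fold changes between -0.19 and -0.01, with a median of -0.11, and limma, edgeR, limma-voom and DESeq2 called 0 of them. At an unadjusted limma p under 0.05 there were 4, all lower, against 3807 of all 23256 tested genes in either direction. In 10 of the 11 both bdt1 libraries lay below both Col-0 libraries. That separation was found in 23.7% of all tested genes and in 47.8% of 249 other genes with a mean of at least 10000 normalised reads. PSBO1, PSBP1 and PSBQ1, the main genes of the oxygen-evolving complex, had mean normalised read counts of 74970, 56520 and 37420 in Col-0 and 70940, 53220 and 35760 in bdt1. Their log2 fold changes were -0.08, -0.09 and -0.07, with 95% intervals from -0.22 to 0.06, from -0.22 to 0.04 and from -0.19 to 0.06. PSBS, which triggers heat dissipation and belongs to the same protein superfamily as the antenna, had a log2 fold change of -0.09 (95% interval -0.22 to 0.03). PSBQ2, at -0.19, was the lowest of the 11 (limma adjusted p = 0.13).

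Electron carriers and the ATP synthase lay around 0. The 7 carrier genes had log2 fold changes from -0.26 to 0.10 with a median of 0.02, and limma, limma-voom and DESeq2 called 0 of them. At an unadjusted limma p under 0.05 there were 2, both lower, against 3807 of all 23256 tested genes in either direction. PETE1, the minor plastocyanin gene, had 4186 and 4261 normalised reads in Col-0 and 3413 and 3654 in bdt1 (log2 fold change -0.26, limma adjusted p = 0.060), and edgeR alone of the 4 tests called it lower (adjusted p = 0.044). PETE2, the main plastocyanin gene, differed by -0.04 and PETC, the Rieske protein of cytochrome b6f, by 0.03.

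The core genes with the largest positive values were FD1, FNR1 and ATPG. FD1, a leaf ferredoxin, had 11950 and 12650 normalised reads in Col-0 and 13040 and 13250 in bdt1 (log2 fold change 0.10, limma adjusted p = 0.42). With 1 library left out in limma or edgeR the value for FD1 ranged from 0.05 to 0.14, and edgeR called it higher without Col-0 replicate 2 (adjusted p = 0.022). FNR1, which passes electrons from ferredoxin to NADP+, had 26490 and 28550 in Col-0 and 27970 and 29080 in bdt1 (0.05, limma adjusted p = 0.72). ATPG, a membrane subunit of the ATP synthase, had 21970 and 23410 in Col-0 and 22880 and 23570 in bdt1 (0.03, limma adjusted p = 0.81). FD1 was the only one of the 3 without overlap between genotypes. The 3 ATP synthase genes had a median log2 fold change of 0.00, and 0 were called by any of the 4 tests or at an unadjusted limma p under 0.05.

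Summed levels weight each group by its abundant genes. Antenna transcripts together had normalised read counts of 521799 and 478628 in Col-0 and 395795 and 408322 in bdt1, 19.6% lower on average, and their share of all normalised reads was 2% in Col-0 and 1.65% in bdt1. Core transcripts together had 869618 and 873376 in Col-0 and 810316 and 819121 in bdt1, 6.52% lower. The sum of LHCII genes, most of it LHCB1.3, was 25% lower, that of LHCI 16.9%, of the linkers 13%, of photosystem I 14%, of photosystem II 6.46% and of the carriers 1.35% lower, whereas that of the ATP synthase had a log2 ratio of 0.0039. For the carriers the sum and the median of 0.02 differ in sign, and both lie close to 0.

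The ratio of summed antenna to summed core reads was 0.6 and 0.548 in Col-0 and 0.488 and 0.498 in bdt1. For LHCII against photosystem II subunits it was 0.653 and 0.565 in Col-0 and 0.487 and 0.489 in bdt1, and for the belt antenna against photosystem I subunits 0.546 and 0.551 in Col-0 and 0.519 and 0.542 in bdt1. In each ratio both bdt1 libraries lay below both Col-0 libraries, and the gap was narrow for photosystem I. No p-value was computed for these ratios of sums, because the genes in them were chosen as lists.

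**Figure D3:**
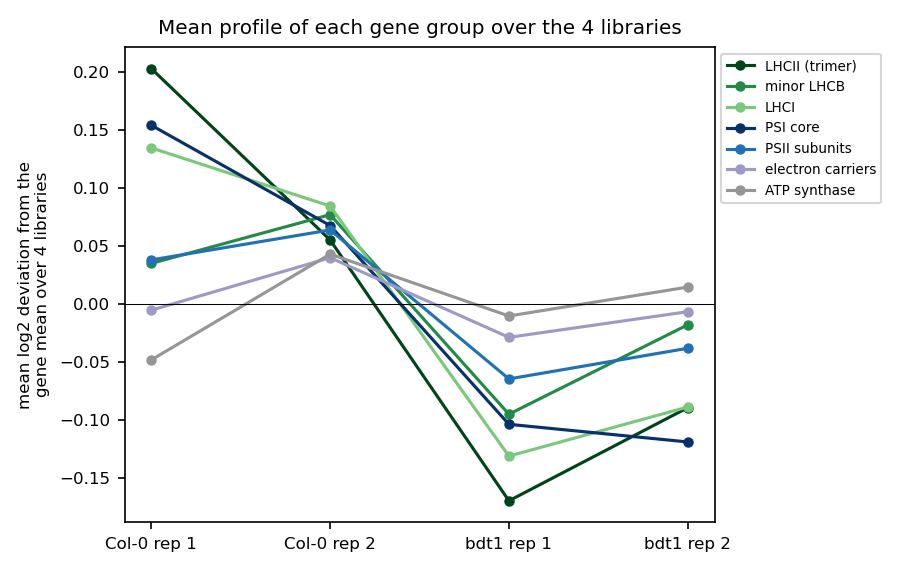
Mean deviation in log2 of each gene group from its genes' means over the 4 libraries, each gene counting equally. LHCII includes LHCB1.5, which is listed at 0 in every library. LHCII runs from 0.20 in Col-0 replicate 1 to -0.17 in bdt1 replicate 1, whereas the ATP synthase stays between -0.05 and 0.04.

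The 2 Col-0 libraries were not alike for LHCII. Its mean deviation was 0.20 in Col-0 replicate 1 and 0.06 in replicate 2. That mean is over all 9 LHCII genes, and LHCB1.5, listed at 0 in every library, draws it towards 0. The 8 tested LHCII genes were all lower in replicate 2, with a median log2 difference of -0.13 (replicate 2 minus replicate 1). In bdt1 the group stood at -0.17 and -0.09. The photosystem II group stood at 0.04 and 0.06 in Col-0 and at -0.06 and -0.04 in bdt1, and the photosystem I group at 0.15 and 0.07 against -0.10 and -0.12. The gap between genotypes exceeded the gap between replicates in the antenna, photosystem I and photosystem II groups, but not in the carriers or the ATP synthase, whose Col-0 libraries stood at -0.05 and 0.04 and bdt1 libraries at -0.01 and 0.01.

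Ratios between genes for the same subunit or protein type were compared in 12 pairs. The ratio of PSAD1 to PSAD2 was 3.24 and 3.45 in Col-0 and 4.2 and 3.92 in bdt1, and that of LHCB4.1 to LHCB4.2 was 3.76 and 3.99 in Col-0 and 4.66 and 4.56 in bdt1. The ratio of LHCB1.4 to LHCB1.3 was 0.0701 and 0.0606 in Col-0 and 0.0994 and 0.0978 in bdt1, that of FD1 to FD2 0.374 and 0.429 against 0.471 and 0.475. By contrast FNR1 to FNR2 was 0.964 and 0.97 in Col-0 and 0.965 and 1.01 in bdt1, and PSBO1 to PSBO2 and PSAH1 to PSAH2 overlapped as well. The 4 LHCB pairs were chosen after their values were seen. Of the 12 pairs, 9 had no overlap between genotypes, the 4 LHCB pairs among them. For single genes of the whole table, 23.7% had both bdt1 libraries below both Col-0 libraries and 25.2% above. Those shares are for levels of genes, and none was computed for ratios between genes, so the 9 of 12 has no like background. The 9 pairs each had an exact two-sided permutation p of 0.333, the smallest possible here, so no pair could pass a threshold of 0.05 before or after adjustment.

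**Figure D4:**
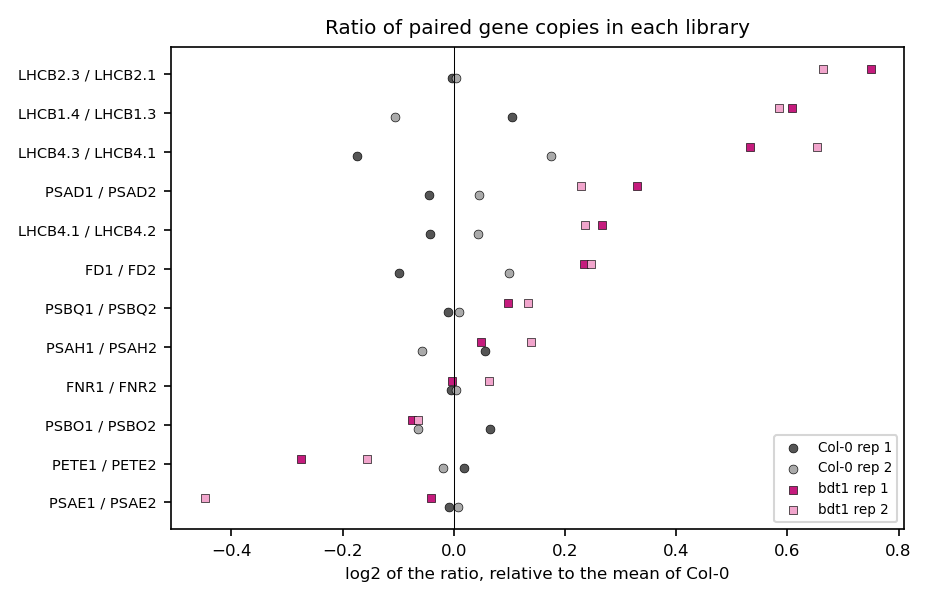
Log2 of the ratio of paired gene copies in each library, relative to the mean of Col-0, with circles for Col-0 and squares for bdt1. LHCB2.3 over LHCB2.1, LHCB1.4 over LHCB1.3 and LHCB4.3 over LHCB4.1 are shifted to the right in both bdt1 libraries, and FNR1 over FNR2 is not.

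A broader shift of abundant transcripts stood beside these values. Outside the 54 members, 249 genes had a mean of at least 10000 normalised reads. Their median log2 fold change was -0.05, 71.5% were below 0, and in 47.8% both bdt1 libraries lay below both Col-0 libraries, against 23.7% of all tested genes. Among the members this separation was found in 14 of 20 antenna and 23 of 33 core genes. Of the 249 abundant genes 2.81% were called lower. Quantile normalisation moved their median to 0.02, the antenna median to -0.14 and the core median to -0.02, and then called 6 antenna genes (LHCB1.2, LHCB2.1, LHCB2.2, LHCB3, LHCB4.2 and LHCA4) and 1 core gene, PSAD2, lower. The part of this shift in the results was not tested.

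Single libraries also set the number of calls. Without bdt1 replicate 1 or without bdt1 replicate 2, limma called 0 genes in the whole table, with 1573 and 1611 at an unadjusted p under 0.05. With all libraries, edgeR called 9 antenna and 3 core genes lower, and 1.12% of all tested genes. In each of these cases it called fewer genes of both classes lower. Over the whole table, its lower calls became fewer without bdt1 replicate 1 and more numerous without bdt1 replicate 2. Its median log2 fold changes without bdt1 replicate 1 were -0.23 for the antenna, -0.12 for the core and -0.0062 for all tested genes. They were -0.29, -0.12 and -0.0029 without bdt1 replicate 2. Without Col-0 replicate 1 or 2, limma called 13 and 12 antenna and 9 and 9 core genes, and edgeR 11 and 13 antenna and 10 and 15 core genes. Calls in the whole table were also more numerous in these fits: limma called 776 and 214 genes lower and edgeR 1326 and 1270, against 199 and 260 with all libraries. LHCB1.2, LHCB2.1, LHCB2.2, LHCB3, LHCB4.2 and PSAD2 were called lower by edgeR whichever library was left out. LHCB1.3, LHCB6 and PSAK were lost by edgeR without either bdt1 library, LHCA4 without bdt1 replicate 1 and LHCA1 without bdt1 replicate 2.

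**Figure D5:**
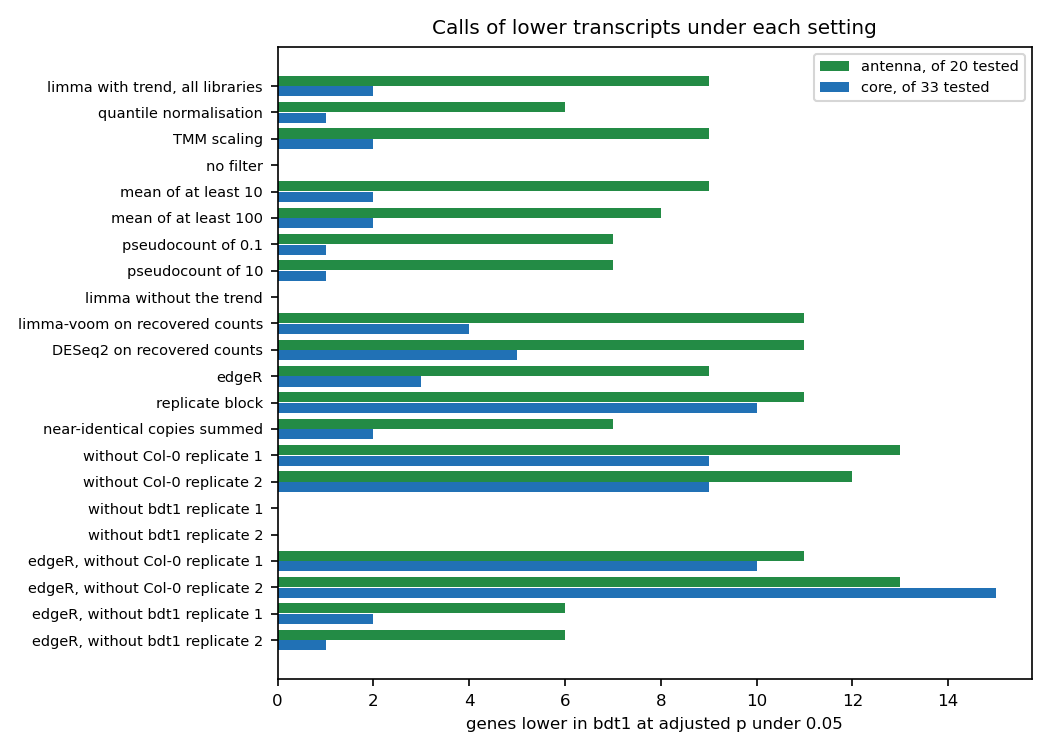
Number of antenna (of 20 tested, fewer where copies were summed) and core (of 33 tested) genes lower in bdt1 at an adjusted p under 0.05 under each processing setting. limma with the trend called 9 and 2, edgeR 9 and 3, and limma called 0 and 0 without either bdt1 library, without the filter or without the trend.

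Other genes of the same pathway did not pass the test. GLK1 and GLK2, the transcription factors known to activate antenna genes, had log2 fold changes of -0.11 and -0.13 (limma adjusted p = 0.34 and 0.32). GLK1 had 4542 and 4362 normalised reads in Col-0 and 4172 and 4071 in bdt1, and GLK2 2235 and 2361 against 2145 and 2053, so the genotypes did not overlap in either gene. Of all tested genes, 23.7% had both bdt1 libraries below both Col-0 libraries in this way. With the signal recognition particle and insertion factors that bring antenna proteins into the thylakoid, GLK1 and GLK2 make a list of 8 genes with a median log2 fold change of -0.08. The tests limma, edgeR, limma-voom and DESeq2 called 0 of the 8. At an unadjusted limma p under 0.05 there was 1, against 3807 of all 23256 tested genes.

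The same held for 13 genes of state transitions and photoprotection (median 0.03), for 14 of photosystem assembly and repair (median 0.03) and for the 6 tested of 8 further isoforms of core and carrier proteins (median -0.11). All 4 tests called 0 of them. An unadjusted limma p under 0.05 was found for 1, 2 and 1, against 3807 of all 23256 tested genes. ATPC2 and FDC1, the untested isoforms, lie inside genes of the opposite strand like LHCB1.5 and are listed at 0.

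Cell type markers did not pass the test. The 10 mesophyll genes, which encode Rubisco small subunits and Calvin cycle enzymes among others, summed to 1060000 and 1132000 normalised reads in Col-0 and 1048000 and 1058000 in bdt1. Their median log2 fold change was -0.03, and limma called 0 of 10, also at an unadjusted p under 0.05. The 13 root markers summed to 1259 and 1169 in Col-0 and 1362 and 1407 in bdt1. Of them 10 lay above 0 in log2 fold change and 3 below, while 49.3% of all tested genes lay below 0. Both bdt1 libraries lay above both Col-0 libraries in 7 root markers and below them in 0. The 7 markers of shoot epidermis and guard cells summed to 12440 and 12450 in Col-0 and 11630 and 11480 in bdt1, with 4 separated lower and 0 higher. Over all tested genes 25.2% were separated higher and 23.7% lower. None of these 20 root and shoot genes was called by limma, edgeR, limma-voom or DESeq2. At an unadjusted limma p under 0.05, 1 root gene was higher and 2 shoot genes were lower, against 3807 of all 23256 tested genes in either direction. The part of these marker levels in the antenna values was not tested.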

How the data were processed

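RNA of 4 libraries, 2 of Col-0 and 2 of bdt1, had been sequenced as read pairs; groups and replicate numbers follow the sample titles. HISAT2 2.2.0, edgeR and the TAIR10 build are named per the submitters' processing notes, while for the read counter, the annotation version and the strandedness the sources used here give nothing. The deposited values are a signal per gene, a normalised read count adjusted by the authors to a common library size. They had the form of edgeR pseudo-counts (fitted dispersion 0.00544), and inverting that adjustment gave whole reads for 100% of values, within 0.001 reads. limma 3.58.1 in R 4.3.3 was fitted, without a block and with its mean-variance trend, to log2(normalised read count + 1) of the 23256 genes with a mean of at least 1, with Benjamini-Hochberg adjustment over all of them and a threshold of 0.05. On this scale the change of genes with few reads is understated. Standard errors and p-values of limma combine the spread between 2 libraries per genotype with the spread fitted by the trend for genes of similar level. They are therefore not a measure of the spread of the single gene alone. Because the deposited values are not raw counts, the test planned for normalised values was used. The other tests were edgeR 4.0.16, DESeq2 1.42.0 and limma-voom on the recovered counts. The inversion and the limma fit were tested on simulated data, and the other tests were not.

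Members and gene lists were chosen with earlier results of these data known. Values in each library are given for called members, for LHCII genes and for the 3 core genes with the largest values in each direction; further values are given where the text turns on them, chosen after they were seen. All 32548 identifiers matched the RefSeq annotation of TAIR10.1, whose nuclear chromosomes were used for positions, transcript lengths, promoters and coding sequences. Protein identity between copies had been planned and was replaced by the identity of coding sequences. Other settings were quantile normalisation, TMM scaling, other filters and pseudocounts, no trend, a replicate block, summed copies and leaving out each library. Same-numbered libraries did not deviate together (correlation -0.0116 over 23256 genes), so they were not treated as pairs. Organelle-encoded subunits were not analysed here.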

Additional observations from a re-analysis of the deposited data

How the results depend on the processing

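The sign of all 11 calls was kept under every setting that gave the gene a value; LHCB1.2, LHCB1.3, LHCB2.1 and LHCB2.2 had none of their own where near-identical copies were summed. With all libraries, 6 to 11 antenna genes were called lower, except that limma without the filter or without the trend called 0 (3540 and 2937 genes of the table had an unadjusted p under 0.05); these settings called 3 and 6 genes lower and 86 and 42 higher in the whole table. Core genes called lower numbered 0 and 0 there, 1 under quantile normalisation and under pseudocounts of 0.1 and 10, 4 by limma-voom and 5 by DESeq2. Over all genes a pseudocount of 0.1 gave 123 lower calls and a filter at a mean of 100 gave 182 higher ones. DESeq2 called 1 antenna gene higher, LHCB4.3. Quantile normalisation moved the antenna median to -0.14 and the core median to -0.023. It called 1 gene of the other photosynthesis lists higher, among 296 in the whole table. The replicate block, for numbers that pair nothing, gave 11 lower and 1 higher antenna genes, 10 lower core genes, 1 higher gene of the other lists and 917 lower and 901 higher genes in all. The causes were not tested.

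Leaving out 1 library, in limma and, as alternatives added after seeing the data, in edgeR, gave 0 to 13 lower and 0 to 2 higher antenna genes, 0 to 15 lower and 0 to 1 higher core genes, 0 to 5 of the other lists in each direction, and 0 to 1326 lower and 0 to 1217 higher genes in all; the lone library of a genotype was assumed to vary like the others. Medians then ranged from -0.31 to -0.20 for the antenna and from -0.12 to -0.10 for the core.

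Signs turned only in members that were not called. Quantile normalisation gave LHCA5 0.0137, PSBO2 0.0962, PSBQ1 0.0032, PSBY 0.0327, PSBTN 0.0179, ATPC1 0.0673 and ATPD 0.0772. With 1 library left out, log2 fold changes ranged from -0.0003 to 0.0528 for PETC, -0.0017 to 0.1062 for FNR1, -0.0264 to 0.0729 for FNR2, -0.0116 to 0.0801 for ATPG, -0.0514 to 0.0501 for ATPC1, -0.0595 to 0.0208 for ATPD, -0.0933 to 0.0716 for PSBO2, -0.0732 to 0.1896 for LHCB1.1, -0.0534 to 0.3365 for LHCB1.4, -0.1602 to 0.0974 for LHCB7 and -0.0679 to 0.0127 for LHCA5. In the 250 bases before the start alone, CACGTG was in 18.2%, GATAAG in 27.3% and CCAATC in 12.1% of core promoters, GATAAG was in 19% of antenna promoters, and the shares over all genes were 6.49% for CACGTG, 12.3% for GATAAG, 10.2% for CCAATC, 47.3% for TATAAA and 2.36% for AAAATATCT.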
